A study of Mus musculus with 4 samples.

Results

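The Cdx, Msx and Dlx homeobox genes were examined for Smad1 peaks in day 4 embryoid bodies (EBs), aggregates of differentiating mouse ES cells. The members were 9 of the 21951 protein-coding genes in the annotation (GENCODE M21, mm10): Cdx1, Cdx2, Cdx4, Msx1, Msx2, Dlx2, Dlx3, Dlx5 and Dlx6. They were listed by name as genes known to respond to BMP (Msx, Dlx) or to Wnt and BMP in blood-forming mesoderm (Cdx), and every peak that came within 20 kb of their bodies was taken. These windows held 6 distinct peak regions of the 40602 in the series. EBs were made from GFP-Bry ES cells, which carry GFP at the Brachyury locus (strain label C57BL/6), were reaggregated, and were collected after 24 h with the vehicle DMSO or with 10 µM IWR1, written IWR-1 here, an inhibitor of Wnt signalling. Smad1 ChIP and input chromatin were sequenced with 1 library of each per treatment, so there was no replicate and no test between treatments is given.

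There were 5 lists of peak positions, and the sample labels name other libraries for several of them. The common DMSO list (10466 sites) and the DMSO MACS list (15927 peaks) carry the label of the DMSO input. The DMSO QESEQ list (26070 peaks) carries the label of the IWR-1 input, yet all 10466 common sites are intervals of it and all overlap the DMSO MACS list. The IWR-1 QESEQ list (16261 peaks) is labelled as the IWR-1 ChIP. The last list, called the second MACS list here (7815 peaks), has the label of the DMSO ChIP. It was taken as the IWR-1 list of MACS only by elimination, so it is named wherever it is used. An overlap of 1 bp or more with a peak of an IWR-1 list counted as a call with IWR-1. A site without a call did not pass that caller's threshold, and the read depth behind a peak is unknown because the lists hold no counts.

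BMP ligands act through receptor kinases that phosphorylate Smad1, which enters the nucleus with Smad4 and binds GC-rich elements and CAGA-type elements. Msx1 and Msx2 encode homeodomain repressors that are BMP-induced in limb, neural crest and tooth. The Dlx genes, homologues of fly Distal-less, lie in convergent pairs and act in forebrain, branchial arch, limb and bone. The Cdx genes, homologues of fly caudal, pattern the posterior axis through the Hox clusters and also act in embryonic blood formation. Wnt signalling reaches its target genes through TCF/LEF factors.

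The stretches of sequence that carry the Smad elements are shown first. They are written from 5′ to 3′ on the plus strand of mm10, with element matches in capitals. For the common DMSO site of Msx2, the middle 240 bases are given (chr13:53476041-53476280), then 40 bases around the elements nearer the end of the site (chr13:53476358-53476397). For the common DMSO site of Dlx2, the 40 bases around its Smad and TCF/LEF elements are given (chr2:71561537-71561576). Both stretches near a site's end were chosen after the matches were seen. For Dlx5, the middle 200 bases of its DMSO QESEQ peak are given, with the Smad element nearest the middle (chr6:6884564-6884763).
Msx2 middle: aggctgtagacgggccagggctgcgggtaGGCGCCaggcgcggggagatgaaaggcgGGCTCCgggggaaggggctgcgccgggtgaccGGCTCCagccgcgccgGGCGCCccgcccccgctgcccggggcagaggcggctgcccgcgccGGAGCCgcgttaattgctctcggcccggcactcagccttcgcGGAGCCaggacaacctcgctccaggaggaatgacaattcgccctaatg
Msx2 end: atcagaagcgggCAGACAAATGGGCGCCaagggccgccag
Dlx2 end: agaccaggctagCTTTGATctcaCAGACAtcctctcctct
Dlx5 middle: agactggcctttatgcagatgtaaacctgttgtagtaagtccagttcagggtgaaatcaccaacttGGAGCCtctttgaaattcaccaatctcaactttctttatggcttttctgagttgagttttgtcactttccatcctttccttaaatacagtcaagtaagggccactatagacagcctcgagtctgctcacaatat

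Capitals mark matches on either strand to 11 elements: the GC-rich Smad element GGCGCC and its variant GGAGCC, the CAGA-type element CAGACA and the Smad palindrome GTCTAGAC, a bipartite Smad element (GGCGNC and, 5 bases on, GTCT), the TCF/LEF elements CTTTGAT and CTTTGTT, the GATA element AGATAA, the AP-1 element TGACTCA, the homeodomain core TAATTA, and a run of at least 7 A. The bipartite element can overlap GGCGCC and CAGACA, as it does in the end of the Msx2 site. A match describes the letters and shows no bound factor. Among the middle 300 bases of all 10466 common sites, 1.57% held GGCGCC, 11.6% GGAGCC, 21.9% CAGACA and 0.0669% the bipartite element. In the same windows 5.18% held CTTTGAT, 8.07% CTTTGTT and 87% a run of at least 7 A.

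Smad1 was called by both callers in DMSO at 2 of the 9 genes, Msx2 and Dlx2, each with 1 common site upstream. That is 22.2% of the members (95% exact interval 2.81 to 60), beside 35.0% of all protein-coding genes (7693 of 21951). The members are short genes, and longer bodies give wider windows. Among the 10953 genes no longer than the longest member, a choice made once the data were seen, the share was 25.7%. MACS listed a DMSO peak at 3 members, the third being Cdx2, which is 33.3% (7.49 to 70.1) beside 44.2% of all genes. QESEQ listed a DMSO peak at 5 members, Cdx1, Msx2, Dlx2, Dlx5 and Dlx6, which is 55.6% (21.2 to 86.3) beside 60.2%. With IWR-1, QESEQ listed a peak at 1 member, Cdx4, which is 11.1% (0.281 to 48.2) beside 47.2%. The second MACS list had a peak at 0 of the 9 (upper bound 33.6%) beside 26.8%. Each background share lay inside the interval of the 9 members, for the IWR-1 QESEQ list close to its upper bound. With 9 genes these intervals are too wide to tell whether the members differ from other genes or are like them. Intervals are Clopper-Pearson and cover counting error only, and the Dlx5 and Dlx6 windows share a peak.

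**Figure D1:**
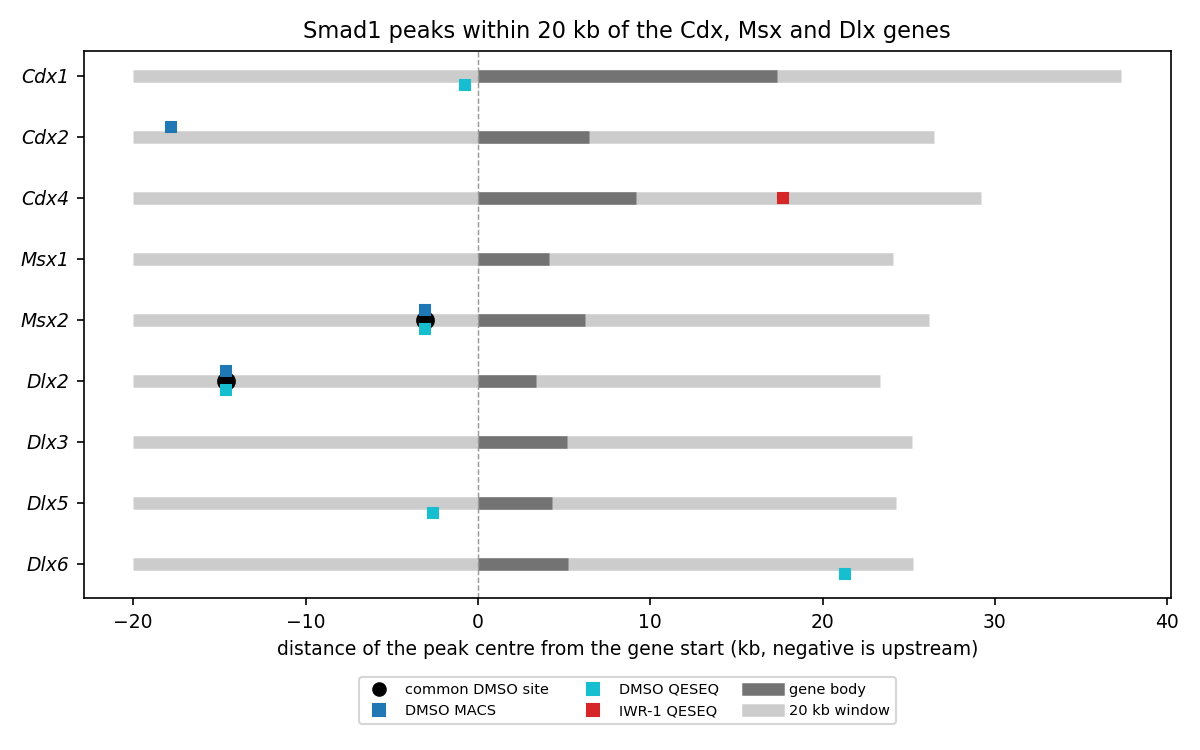
Smad1 peaks within 20 kb of the 9 genes, with the distance of each peak centre from the gene start in kb on the x axis and 1 row per gene. All DMSO peaks except the one in the Dlx6 window lay upstream of the gene start, the IWR-1 peak lay past the end of Cdx4, and Msx1 and Dlx3 had none.

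None of the DMSO peaks in the windows was called with IWR-1. Of the 2 common sites, 0 had an IWR-1 QESEQ call, which allows a share of up to 84.2%, beside 37.0% of all 10466 common sites. None of the 2 had a call in the second MACS list either, beside 25.8% of all common sites, and 44.4% of common sites had a call in either list. Of the 4 DMSO QESEQ peaks, 0 had an IWR-1 QESEQ call (upper bound 60.2%), beside 25.8% of the 26070 peaks of that list. The single IWR-1 peak, at Cdx4, lay outside both DMSO lists, as did 52.9% of all IWR-1 QESEQ peaks. With so few peaks, shares as high as the background are within these intervals.

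Of the 6 regions, the Msx2 site held the most Smad elements. The gene has 2 exons and occupies 53466884 to 53473074 of chromosome 13, minus strand. Its common site spanned 53475867 to 53476454, was the same interval in the DMSO QESEQ list, and had its centre 3.09 kb upstream of the gene start. No annotated gene overlapped it, and the nearest coding start was that of Msx2 itself. MACS gave it a score of 82.2 in DMSO, at percentile 77.5 of the list. This score is the value that MACS gave each peak, and the lowest in the list was 50.

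In sequence the Msx2 site was GC-rich, with a GC content of 66.5%, above that of 99.3% of the common sites, whose median was 41.5%. It held 53 CpG dinucleotides in 588 bp, or 9.01 per 100 bases against a median of 0.811. Only 5.27% of it was masked as repeat, against a median of 38.2%. No run of A or T in it exceeded 4 bases, where the median common site had 25, and it was 1 of the 9.7% of common sites with no run of 7 A. GGCGCC occurred 3 times, GGAGCC 4 times and CAGACA 1 time, a total of 8 Smad elements. At least as many were found in 18 of the 10466 common sites (0.172%), itself included. The common sites were not matched to it in GC content or in width, with a median of 423 bp. The bipartite element, 3.3 kb upstream of the gene start, occurred in 14 common sites in all (0.134%). The site had no TCF/LEF, GATA or AP-1 match.

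**Figure D2:**
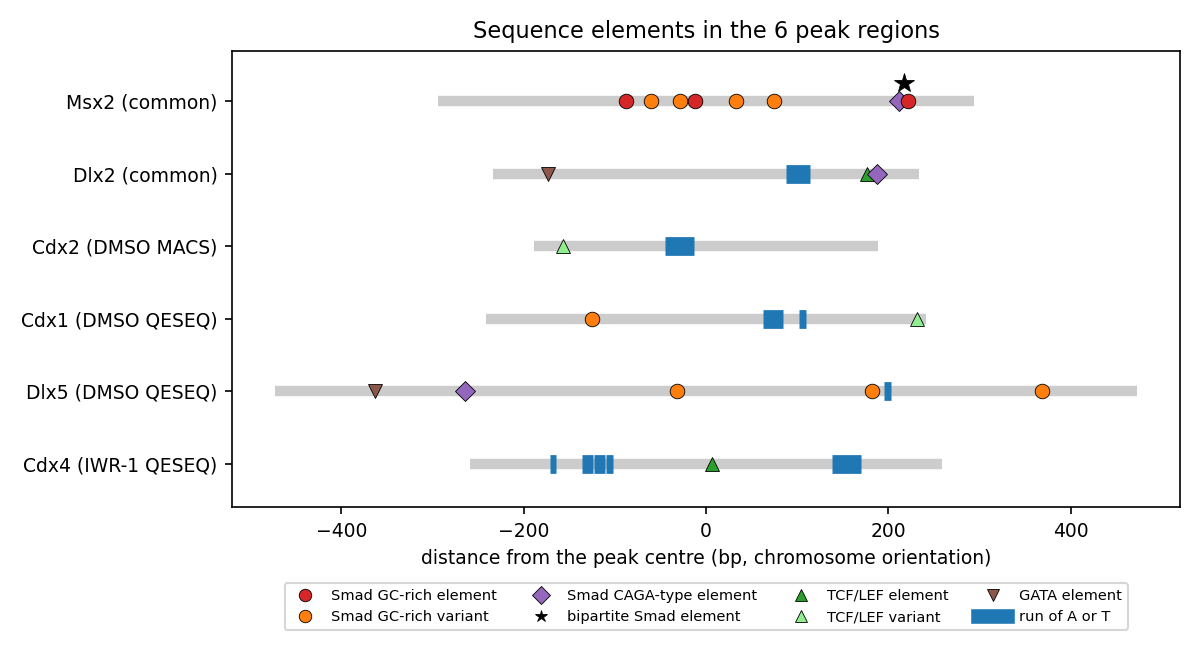
Element matches along the 6 peak regions, with the distance from the peak centre in bp on the x axis, 1 row per region, grey bars for the extent of the peak and blue blocks for runs of A or T. The Msx2 site carried 8 Smad elements and a bipartite match with no run, while 5 of the 6 regions held a run of at least 7.

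No IWR-1 peak was near the Msx2 site. The nearest was 399 kb away in the QESEQ list and 206 kb away in the second MACS list. Common sites like it in 1 respect were compared, a choice made after its values were seen. Of the 77 common sites with a GC content at least as high, 53 had an IWR-1 QESEQ call (68.8%, 57.3 to 78.9) and 46 a call in the second MACS list (59.7%). Of the 14 sites with the bipartite element, 9 had an IWR-1 QESEQ call (64.3%, 35.1 to 87.2) and 6 a call in the second MACS list (42.9%, 17.7 to 71.1). Of the 1015 sites with no run of 7 A, 447 had an IWR-1 QESEQ call (44%, 41 to 47.2) and 397 a call in the second MACS list (39.1%). Of the 893 common sites with DMSO scores from 82.2 to 92.3, the scores of the Msx2 and Dlx2 sites, 367 had an IWR-1 QESEQ call (41.1%, 37.8 to 44.4) and 302 a call in the second MACS list (33.8%). Each group held sites with and without a call.

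Dlx2, which acts with Dlx1 in forebrain interneurons and the branchial arches, had a common site close to the median of the list in GC content and run length. The gene occupies 71543408 to 71546754 of chromosome 2, minus strand. The site spanned 71561142 to 71561608, centred 14.6 kb upstream of the gene start, and MACS scored it 92.3 in DMSO, at percentile 85.1. This was the highest score among the member peaks. GC content was 42%, 58% of the site was masked, against an upper quartile of 58% over common sites, and it held 0.214 CpG per 100 bases, against a lower quartile of 0.406. It held a long repeat of alternating G and T and a run of 27 T, against a median longest run of 25 over common sites. CTTTGAT and CAGACA stood close together near the end of the site, 14.8 kb upstream of the gene start, and AGATAA nearer the other end. Over whole common sites, 7.47% held CTTTGAT, 32% CAGACA and 21.1% AGATAA. The nearest IWR-1 peaks were 92.8 kb away in the QESEQ list and 95.4 kb away in the second MACS list. Of the common sites with a run at least that long, 39.7% had an IWR-1 QESEQ call.

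**Figure D3:**
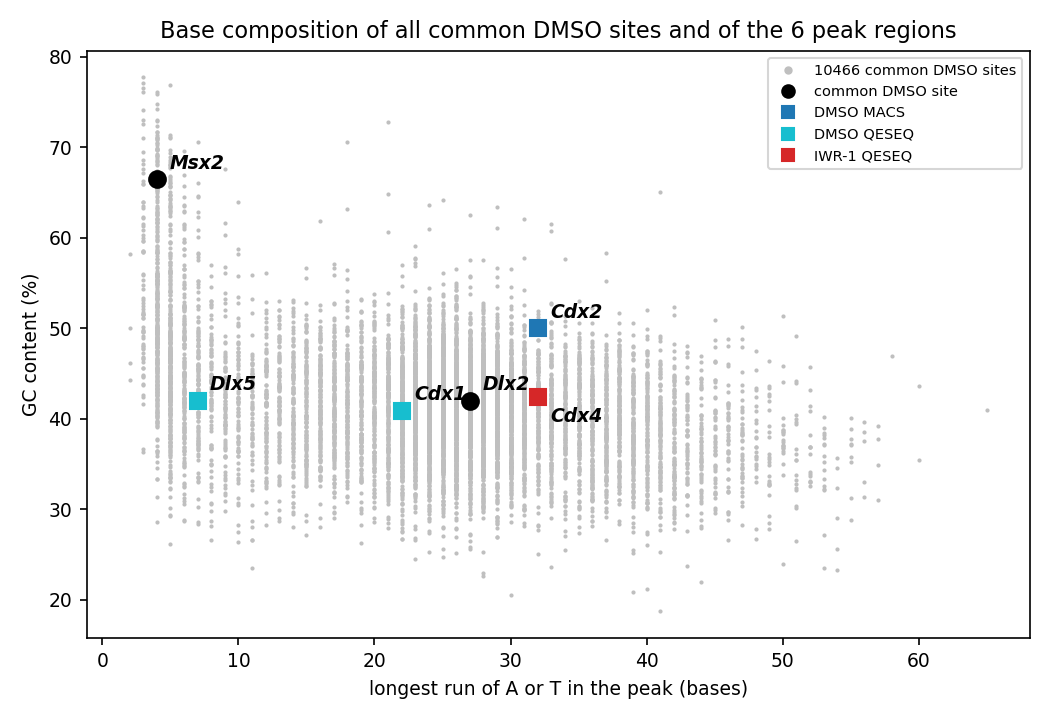
GC content in percent against the longest run of A or T in bases, for the 10466 common DMSO sites (grey) and the 6 peak regions of the Cdx, Msx and Dlx genes (named). The Msx2 site lay at 66.5% GC with a longest run of 4, and the Dlx2 site at 42% with a run of 27, in the bulk of the sites.

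Cdx2, needed for trophectoderm and for the intestine and posterior axis, had a peak from MACS alone. Cdx2 occupies 147300805 to 147307270 of chromosome 5, minus strand, and the peak spanned 147324898 to 147325275, centred 17.8 kb upstream of its start. With a score of 50.5, at percentile 2.23, it stood close to the lowest score of the list. It was nearer to the start of Urad, a gene of urate breakdown, at 2.46 kb. All of its bases were masked as repeat (100%), and it held a run of 32 T and 1 CTTTGTT. QESEQ listed no DMSO peak there, and the nearest IWR-1 QESEQ peak was 60.2 kb away.

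Dlx5 and Dlx6, which act in limb, jaw and bone, shared a DMSO peak from QESEQ alone. It spanned 6884192 to 6885136 on chromosome 6, was the widest of the 6 regions at 945 bp, and was centred 2.58 kb upstream of the start of Dlx5. Dlx5 lies from 6877805 to 6882085 on the minus strand and Dlx6 from 6863334 to 6868568 on the plus strand, so the same peak lay 15.6 kb past the end of Dlx6. It held GGAGCC 3 times and CAGACA 1 time. These 4 Smad elements were equalled or exceeded by 1.68% of common sites, which are mostly shorter, with a median width of 423 bp. GC content was 42%, 14.1% was masked, and no run of A or T exceeded 7. The nearest IWR-1 QESEQ peak was 65.9 kb away.

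Cdx1, a gene that Wnt induces through TCF/LEF elements at its promoter, had, among the members, the DMSO peak closest to its gene start. The gene occupies 61018862 to 61036199 of chromosome 18, minus strand, and QESEQ alone listed the peak, from 61036684 to 61037165. The gap to the gene body was 484 bp, and 33% of protein-coding genes had a DMSO QESEQ peak closer to or inside their bodies. The peak held 1 GGAGCC, 1 CTTTGTT and a run of 22 A or T, with a GC content of 40.9%. The nearest IWR-1 QESEQ peak was 56.9 kb away. A common site lay 39.1 kb past the end of Cdx1, also without an IWR-1 call in either list.

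Cdx4 was the only member with an IWR-1 peak and had none in DMSO. The peak, from QESEQ alone, spanned 103338827 to 103339343 on chromosome X, 8.23 kb past the end of the gene, which runs from 103321398 to 103330592 on the plus strand. It is named here although it lay beyond the 5 kb used to name peaks of QESEQ alone. The nearest coding start was that of Chic1, 17.1 kb from the peak, and the peak centre was 17.7 kb past the start of Cdx4. Repeat masking covered 85.9% of the peak, it held 5 runs of A or T, the longest of 32, and CTTTGAT lay 7 bp from its centre. The nearest DMSO peak was 70.8 kb away. The Cdx2 and Cdx4 peaks, masked as repeat over 100% and 85.9% of their bases, shared a stretch of 26 bases. This stretch held no run of 7 A or T, and 385 common sites also held it (3.68%).

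All 6 regions held a Smad or TCF/LEF element over their whole width, beside 54.3% of common sites (95% exact interval for 6 of 6, 54.1 to 100). Smad elements were in 4 of them (66.7%, 22.3 to 95.7), beside 44.2% of common sites. TCF/LEF elements were also in 4 (the same interval), those at Cdx1, Dlx2, Cdx2 and Cdx4, beside 18.3%. Of these, the Cdx2 and Cdx4 regions were masked as repeat over 100% and 85.9% of their bases. The Cdx2 region was listed by MACS alone and the Cdx4 region with IWR-1 alone. The 6 regions are not matched to the common sites, since only 2 of the 6 are common sites and 5 are wider than the common median of 423 bp. Within the middle 200 bp, 3 regions held one, those at Msx2, Dlx5 and Cdx4, beside 29.4% of common sites. A run of at least 7 A was in 5 of the 6, and in 90.3% of common sites.

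**Figure D4:**
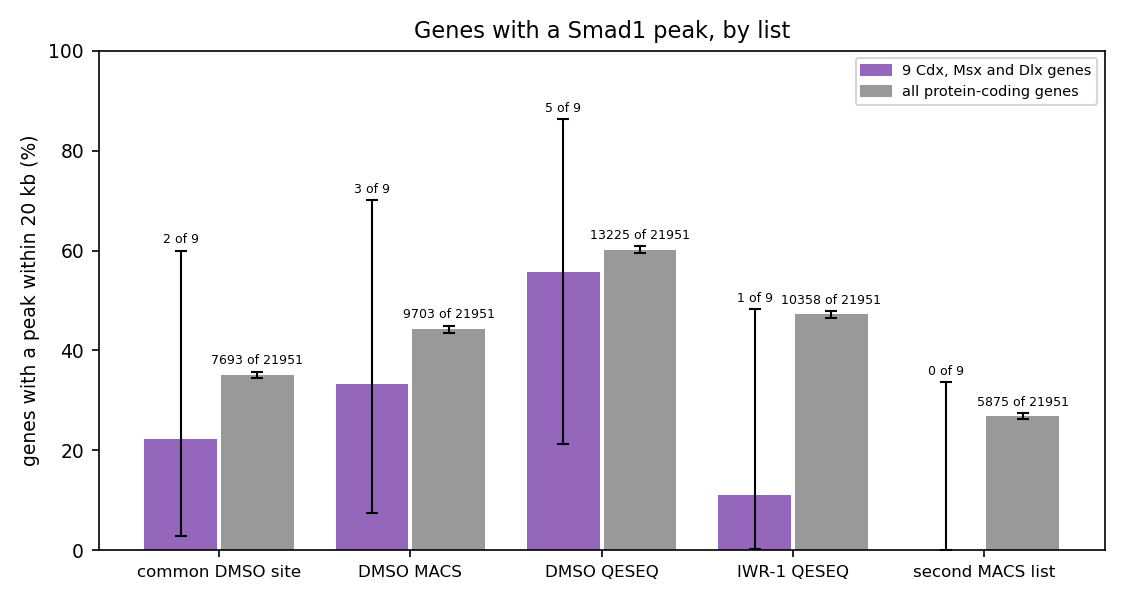
Percent of genes with a Smad1 peak within 20 kb, by peak list, for the 9 Cdx, Msx and Dlx genes and for all 21951 protein-coding genes, with 95% exact intervals as error bars. In each list the bar of the 9 genes was lower than that of all genes and its interval included it, from 5 of 9 with a DMSO QESEQ peak to 0 of 9 in the second MACS list. The bars of all genes were not matched to the 9 genes in length.

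Msx1 and Dlx3 had no peak of any list within 20 kb. Msx1, needed for tooth and palate, lies on chromosome 5 from 37820485 to 37824583, and its nearest common site was 282 kb away, with 87.9% of protein-coding genes having one closer. Its nearest DMSO QESEQ peak lay 50.3 kb past the end of the gene and overlapped an IWR-1 QESEQ peak. Dlx3, needed in placenta and skin, lies on chromosome 11 from 95120119 to 95125296. Its nearest common site was 34.6 kb upstream and had an IWR-1 QESEQ call. A further common site 48.7 kb past the end of Dlx3 was called in both IWR-1 lists, and an IWR-1 QESEQ peak lay 28.2 kb upstream with no DMSO peak under it. The nearest common site to Dlx6, 45.1 kb upstream, also had an IWR-1 QESEQ call, and so did that of Cdx2, 78.2 kb upstream.

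The nearest common sites of the 9 genes were 8 distinct sites, of which 6 lay beyond the windows, up to 282 kb away. Of the 6, 4 had an IWR-1 QESEQ call, those of Cdx2, Msx1 and Dlx3 and the one shared by Dlx5 and Dlx6, beside 37.0% of all common sites, and 0 had a call in the second MACS list, beside 25.8%. The median gap from a member to its nearest common site was 45.1 kb, beside 45.5 kb over all protein-coding genes. For the DMSO MACS list the median was 39 kb beside 27.6 kb, and for the DMSO QESEQ list 15.6 kb beside 10.2 kb. For the IWR-1 QESEQ list it was 57.9 kb beside 23.7 kb, and for the second MACS list 142 kb beside 72.7 kb.

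**Figure D5:**
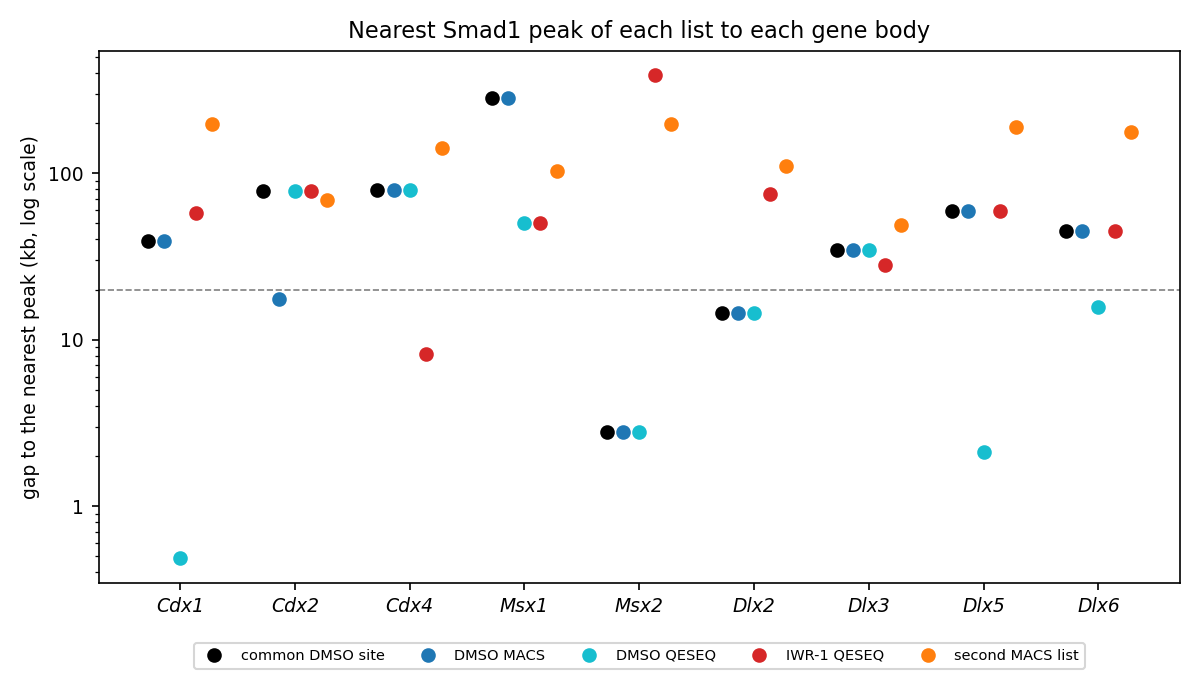
Gap in kb (log scale) from each gene body to the nearest peak of each of the 5 lists, 1 column of points per gene, with the dashed line at 20 kb. At Msx2 the DMSO lists had a peak 2.79 kb away and the nearest IWR-1 QESEQ peak was 390 kb away, while at Dlx3 all lists had a peak from 28.2 to 48.8 kb away.

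The members were short genes, from 3.35 to 17.3 kb with a median of 5.24 kb, where the median protein-coding gene spans 17.4 kb. Their windows together covered 391 kb. They held 5.12 common sites per Mb, beside 3.84 per Mb over the 2726 Mb genome, and 10.2 DMSO QESEQ peaks per Mb beside 9.57. Promoter sequences (RefSeq, GRCm38.p6, 300 bases around the RefSeq start) were read for members outside chromosome 18, which left out Cdx1. They were found for 5 members, Cdx2, Cdx4, Dlx2, Msx1 and Msx2, and no peak overlapped them. GGAGCC was in those of Dlx2, Msx1 and Msx2 (30.8% of all 32851 promoters), CAGACA in those of Cdx2 and Dlx2 (21%), and GGCGCC in that of Dlx2 (11.9%). The Msx2 sequence, which lies from 53472731 to 53473030 and so inside the GENCODE gene body, also held TAATTA (5.29%), and that of Cdx4 held none of the 11 elements.

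Related gene lists had common sites in the following numbers, to be read beside 35.0% of all protein-coding genes. The other genes of these families, Dlx1, Dlx4 and Msx3, had a peak of no list (0 of 3). Among Gsx1, Gsx2 and Pdx1, the homeobox genes of the ParaHox group of which Cdx2 is part, 1 of 3 had a common site, Gsx2 (score 86.4). Among the Hox genes, which Cdx factors regulate, 18 of 39 had one (46.2%), in 7 distinct sites because the genes are clustered, with Hoxb13 (128) the highest. Among BMP-responsive transcription factors it was 9 of 16 (56.2%), Id2 (148) and Id3 (80.3) among them. Among posterior and blood genes linked to Cdx it was 4 of 12 (33.3%), with Sox2 (91.1), Runx1 (83.7) and Pax3 (79.2). Among other NKL homeobox genes, the class that holds Msx and Dlx, it was 10 of 38 (26.3%, 2 of the 40 listed symbols being absent from the annotation), with Emx2 (101) and Tlx3 (78) the highest. An IWR-1 QESEQ call was found at 0 of 1 common site of the ParaHox genes, 1 of 7 of the Hox genes, 4 of 10 of the BMP-responsive factors, 3 of 7 of the posterior and blood genes and 5 of 11 of the other NKL genes, beside 37.0% of all common sites. In the same order, the second MACS list had calls at 0 of 1, 2 of 7, 4 of 10, 1 of 7 and 3 of 11, beside 25.8%.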

How the data were processed

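The authors aligned single-end reads with Bowtie2 2.1.0 to mm10, removed duplicates and called peaks of each ChIP against its input with MACS 1.0.1 and QESEQ. The deposited MACS lists give positions and a score per peak, and the QESEQ lists and the common list give positions only. Scores ranked peaks within the DMSO MACS list and were not compared between lists. No read counts were given, so depth per peak is unknown. Starts were read as counted from 0 and are printed counted from 1. Peaks within 20 kb of GENCODE M21 gene bodies were taken, a peak shared by 2 windows counting once. A site's score is the highest overlapping DMSO MACS score. Its percentile is its mid-rank in that list, in which peaks of equal score count in part. Bases and repeat masks were read from GRCm38 as NCBI gives it. Every common site and DMSO MACS peak was named, peaks of 1 QESEQ list within 5 kb of a gene, and up to 3 genes of each related list from those with the higher scores. Members and lists were chosen with earlier results of these data known. Alternatives covered the window, site list, score threshold, overlap, IWR-1 list, background genes and motif window. The work used pysam 0.24.0, scipy 1.17.1, matplotlib 3.10.9 and numpy 2.4.6 under Python 3.11.15, and simulated data were used to test the overlap and motif functions.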

Additional observations from a re-analysis of the deposited data

How the results depend on the processing

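The window set most counts. With 10 kb in place of 20 kb, 1 member gene had a common site (1 site, at Msx2), 3 had a DMSO QESEQ peak, and the background share of genes with a common site was 27.3%. With 50 kb, 5 members had a common site (6 sites), of which 3 had an IWR-1 QESEQ call and 1 a call in the second MACS list. At 50 kb, 3 of 11 DMSO QESEQ peaks had an IWR-1 QESEQ call, 2 IWR-1 QESEQ peaks lay outside both DMSO lists, and the background was 52%. So the lack of IWR-1 calls did not extend to 50 kb. At 10 kb, 0 of 1 common site and 0 of 3 DMSO QESEQ peaks had an IWR-1 QESEQ call, which the count of 0 at 20 kb already fixes. With DMSO QESEQ peaks alone as sites, 5 members and 4 sites were counted, and with a DMSO MACS score of at least 100, 0 members and 0 sites. Among the 10953 genes no longer than the longest member, a choice made once the data were seen, the background was 25.7%. In the central 200 bp, 3 of 6 regions held a Smad or TCF/LEF element. The other 28 of 45 alternatives kept their counts within 1.5 times or their share within its interval, but many could not have moved and say nothing of stability. A count of 0 calls was fixed under the 50% overlap, the window around the gene start, a call in either or both IWR-1 lists and, with the nearest IWR-1 QESEQ peak 56.9 kb or more from each DMSO region, the 500 bp gap. The DMSO regions alone, added after seeing the data, had to hold an element in 5 of 5, since all 6 regions did. The second MACS list rests on an assignment by elimination. With 1 library per treatment and no read counts, the depth behind a missing call is unknown.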
